A study of Mus musculus with 6 samples.

Results

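The S100 family was described here through 10 mouse genes, S100a1, S100a4, S100a6, S100a8, S100a9, S100a10, S100a11, S100a13, S100a16 and S100g, each taken by its symbol from a table of 24318 rows. S100 proteins are small calcium-binding proteins with a pair of EF hands, helix-loop-helix motifs that hold a calcium ion. Most work as dimers that change shape on binding calcium and then attach to target proteins such as annexins or parts of the cytoskeleton. Some are also released from stressed or activated cells and act as alarm signals on receptors such as TLR4 and RAGE, and S100a8 with S100a9 makes up calprotectin, an abundant protein of the neutrophil cytosol.

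Whole liver RNA was sequenced from 3 knockout and 3 control mice on the C57BL/6 background, all of the genotype VEcadCreERT2/TAK1flox/flox. In these animals the kinase TAK1, encoded by Map3k7, has loxP-flanked alleles, and a tamoxifen-inducible Cre recombinase is driven by the promoter of the endothelial gene VE-cadherin. Knockout mice had received tamoxifen and control mice had received no treatment, so that TAK1 deletion and tamoxifen cannot be told apart, and the promoter is active in endothelium of other organs too. Age, sex and the time after tamoxifen are not given in the labels, and nothing says more of the replicates than that they are triplicates, so p-values measure only the spread between these libraries. The values are FPKM, fragments scaled to transcript length and library size, so levels of different genes can be set side by side per length. In bulk tissue, a change in the number of cells that carry a transcript and a change in its level per cell cannot be told apart.

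Knockout livers carried far more of some S100 transcripts, and the few called lower fell only slightly. Of the 10 genes, 9 were detected and tested, and S100g, a vitamin D-dependent calcium-binding protein of gut epithelium, was listed at 0 in every library. By limma on log2(FPKM + 0.5), with p-values Benjamini-Hochberg adjusted over all 11842 genes tested and a threshold of 0.05, 5 of the 9 were higher in knockout livers (S100a4, S100a6, S100a8, S100a9 and S100a11) and 2 were lower (S100a1 and S100a16). Over all genes tested, 14.1% were higher and 13% lower, or 27.0% in either direction. Knockout and control libraries did not overlap for these 7 genes, whereas 22.4% of all genes tested lay apart and higher in knockout, 21.1% apart and lower, and 43.5% in either direction. So few lower calls, beside these shares, are not read as a result about the family. The number called lower was 0 to 4 when 1 library was left out. The median log2 fold change of the 9 was 2.14, and that of all genes tested was -0.0007. All 9 were above the minimum mean of 0.5 FPKM in either group, so none was tested because of a rise alone.

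**Figure D1:**
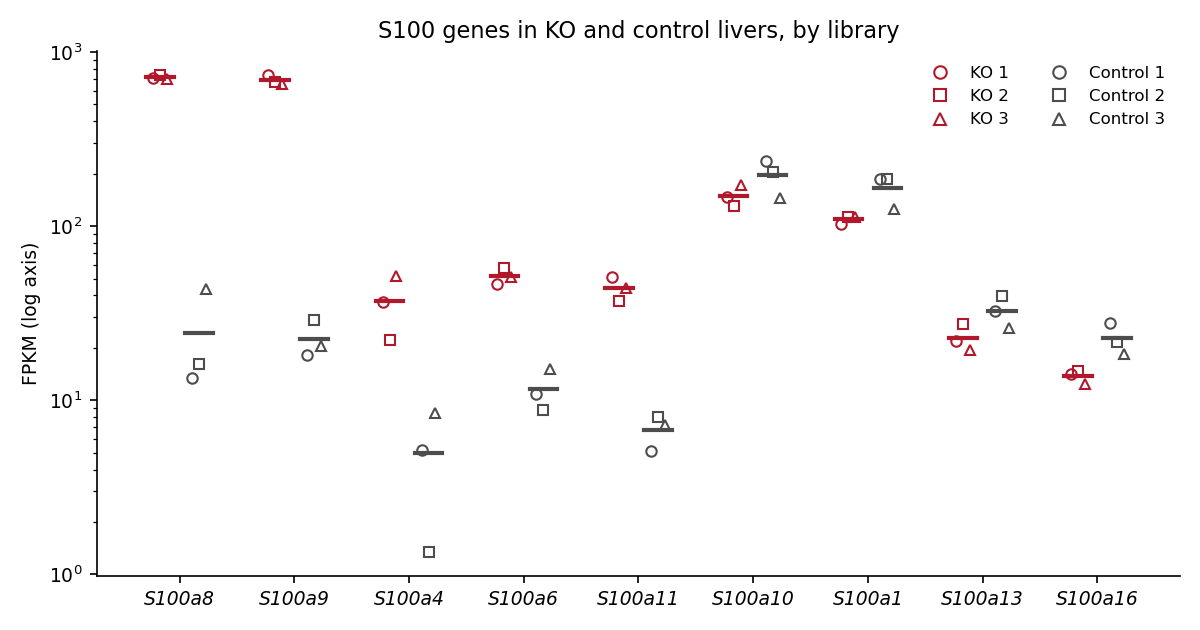
FPKM of the 9 detected S100 genes on a log axis in each knockout library (red, left) and control library (grey, right), with bars at the group means and symbols for the replicate number (3 libraries per group). S100a8 and S100a9 lie at 656 FPKM or more in every knockout library and at 43.7 FPKM or less in every control library, whereas S100a10 and S100a13 overlap between the groups.

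The calprotectin genes changed most of the family, with ratios of the mean FPKM of knockout over control of 29.4 for S100a8 and 30.6 for S100a9. S100a8, which encodes the smaller subunit, had 709, 739 and 701 FPKM in knockout libraries, against 13.5, 16.1 and 43.7 FPKM in control libraries. The knockout libraries lay close together and far above all controls, and control 3 stood above the other controls. Its means were 716 ± 20.3 FPKM in knockout and 24.4 ± 16.7 FPKM in control livers (SD, n = 3 each), and the control mean was 14.8 FPKM without control 3. The log2 fold change was 5.05 ± 0.36 (SE, limma adjusted p = 4.78e-05), and 5.56 without control 3. S100a9, which encodes the larger subunit, had 741, 675 and 656 FPKM in knockout libraries, against 18.2, 29.04 and 20.4 FPKM in control libraries. These groups were also wide apart, and no control stood out as control 3 did for S100a8. The log2 fold change of S100a9 was 4.93 ± 0.18 (limma adjusted p = 1.35e-06). Among all 11842 genes tested, S100a8 and S100a9 had the 12th and 13th largest log2 fold changes.

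In knockout livers the transcripts of both subunits were at nearly the same level, and protein was not measured. The ratio of S100a8 to S100a9 FPKM was 0.956, 1.095 and 1.07 in knockout libraries, against 0.741, 0.554 and 2.14 in control libraries. The knockout ratios lay within the range of the controls, which control 3 widened. The log2 difference of the ratio was 0.12, with an exact two-sided permutation p of 1, where 0.1 is the smallest that 3 against 3 libraries can give. It was 0.70 without control 3, -0.07 without control 1 and -0.28 without control 2.

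The start regions of S100a8 and S100a9 are shown because these neighbouring genes had the largest rises. The sequences are those of RefSeq on GRCm38.p6, which is not the mm9 build of the deposited values, and run from 250 bases before to 50 bases after the gene's start (S100a8 at chr3:90668821-90669120 on the plus strand, S100a9 at chr3:90695672-90695971 on the minus strand). Capitals mark matches, on either strand, to 6 motifs: AP-1 (TGANTCA), C/EBP (TTGCNNAA), STAT (TTCNNNGAA), PU.1 (GAGGAA), the TATA box (TATAAA) and the GC box (GGGCGG). In 32851 promoters of this length, these letters occurred in 7.81%, 10.8%, 8.3%, 28.3%, 13.6% and 35.7%, in that order.
S100a8: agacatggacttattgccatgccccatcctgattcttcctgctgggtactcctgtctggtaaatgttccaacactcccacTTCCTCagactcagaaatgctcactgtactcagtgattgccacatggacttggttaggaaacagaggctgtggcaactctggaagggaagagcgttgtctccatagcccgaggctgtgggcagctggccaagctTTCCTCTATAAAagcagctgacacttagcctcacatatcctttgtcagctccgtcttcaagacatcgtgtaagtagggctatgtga
S100a9: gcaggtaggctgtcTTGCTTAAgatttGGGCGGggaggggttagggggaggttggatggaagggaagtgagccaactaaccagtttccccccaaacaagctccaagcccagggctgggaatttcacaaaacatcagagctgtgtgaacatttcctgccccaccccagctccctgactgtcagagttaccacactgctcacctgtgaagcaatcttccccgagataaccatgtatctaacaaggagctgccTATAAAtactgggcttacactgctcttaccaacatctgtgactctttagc

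The S100a8 sequence held a TATA box at position -30, counted from the gene's start, and PU.1 matches at -170 and -36, written here on the other strand as TTCCTC. The S100a9 sequence held a C/EBP match at -236, a GC box at -223 and a TATA box at 1. No matches overlapped in these sequences, and they share the TATA box letters. A match is a string of letters and was not tested as a binding site.

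S100a4, S100a6 and S100a11 also rose, from lower levels. S100a4, a binding partner of non-muscle myosin that is expressed in fibroblasts and leukocytes, had 36.7, 22.2 and 52.0 FPKM in knockout libraries, against 5.17, 1.35 and 8.49 FPKM in control libraries. Every knockout library was above every control, with a spread in both groups wider than that of the other S100 genes that rose in relation to its level. Its log2 fold change was 2.96 ± 0.52 (limma adjusted p = 0.00323), and 2.31 without control 2. S100a6, also called calcyclin and known from proliferating and mesenchymal cells, had 46.3, 57.8 and 51.1 FPKM in knockout libraries, against 10.8, 8.83 and 15.1 FPKM in control libraries. The groups were apart, with control 3 the highest control, and the log2 fold change was 2.14 ± 0.20 (limma adjusted p = 0.000182). S100a11, a partner of annexin A1 at membranes, had 51.03, 36.9 and 44.3 FPKM in knockout libraries, against 5.09, 7.97 and 7.17 FPKM in control libraries. Its log2 fold change was 2.63 ± 0.20 (limma adjusted p = 6.24e-05), with a narrow spread within either group. A pseudogene, S100a11-ps, is annotated in GENCODE, and the sources used here do not say how reads shared with it were counted, so the level of S100a11 is uncertain to that extent.

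The start regions of these genes follow, with the same motifs in capitals, because they rose in the same livers (S100a4 at chr3:90603520-90603819, S100a6 at chr3:90612644-90612943 and S100a11 at chr3:93520246-93520545, all on the plus strand of GRCm38.p6).
S100a4: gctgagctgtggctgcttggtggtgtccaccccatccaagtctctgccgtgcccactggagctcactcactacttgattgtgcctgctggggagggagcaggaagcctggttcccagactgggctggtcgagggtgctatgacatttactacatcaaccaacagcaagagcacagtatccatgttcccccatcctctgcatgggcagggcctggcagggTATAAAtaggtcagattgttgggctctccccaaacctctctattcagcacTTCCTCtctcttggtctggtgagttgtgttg
S100a6: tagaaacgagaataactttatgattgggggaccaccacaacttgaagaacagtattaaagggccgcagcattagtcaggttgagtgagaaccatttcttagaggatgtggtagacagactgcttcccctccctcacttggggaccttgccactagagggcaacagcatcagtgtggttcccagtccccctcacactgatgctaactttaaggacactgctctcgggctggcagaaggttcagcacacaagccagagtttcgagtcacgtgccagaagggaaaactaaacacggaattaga
S100a11: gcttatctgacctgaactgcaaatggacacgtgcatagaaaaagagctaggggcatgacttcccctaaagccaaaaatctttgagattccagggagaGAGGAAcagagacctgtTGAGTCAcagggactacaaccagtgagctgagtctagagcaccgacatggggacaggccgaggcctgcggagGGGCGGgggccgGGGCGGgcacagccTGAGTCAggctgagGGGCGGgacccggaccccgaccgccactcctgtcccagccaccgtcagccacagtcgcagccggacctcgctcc

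S100a4 held a TATA box at -31 and a PU.1 match at 20. S100a6 held none of the 6 motifs, and S100a11 held AP-1 matches at -136 and -38, a PU.1 match at -153 and GC boxes at -64, -52 and -24. No motif was common to the start regions of the 5 genes that rose, and a STAT match was found in none of them. Of the other genes, S100a1 and S100a13 held none of the motifs in their single start region. In all, 9 of the 10 genes matched the RefSeq table, with 10 start regions, and S100a10 had no entry.

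S100a1 and S100a16 were lower in knockout livers, by less than 1 log2 unit. S100a1, a calcium sensor best known from heart and muscle, had 103, 113 and 113 FPKM in knockout libraries, against 186, 186 and 125 FPKM in control libraries. The groups did not overlap, but control 3 lay close to the knockout libraries. Its log2 fold change was -0.57 ± 0.17 (limma adjusted p = 0.0361), and it passed the threshold in 9 of 17 alternatives, whose adjusted p-values ran from 0.00545 to 0.14. S100a16, a widely expressed family member, had 14.1, 14.7 and 12.3 FPKM in knockout libraries, against 28.0, 21.7 and 18.4 FPKM in control libraries. Control 3 was again the lowest control, and the log2 fold change was -0.69 ± 0.18 (limma adjusted p = 0.0199). It did not pass without knockout 3, control 1 or control 2, with adjusted p-values of 0.0606, 0.0774 and 0.058 in a range of 0.00988 to 0.0774 over the alternatives.

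S100a10 and S100a13 did not pass the test. S100a10, a calcium-independent member that binds annexin A2 at the plasma membrane, had 147, 131 and 172 FPKM in knockout libraries, against 238, 204 and 145 FPKM in control libraries. Control 3 lay among the knockout libraries, and the log2 fold change was -0.36 with a 95% interval of -0.81 to 0.08 (limma adjusted p = 0.202). S100a13, which takes part in the release of FGF1, had 21.8, 27.5 and 19.4 FPKM in knockout libraries, against 32.6, 39.6 and 26.04 FPKM in control libraries. Knockout 2 was above control 3, and the log2 fold change was -0.50 with a 95% interval of -0.94 to -0.07 (limma adjusted p = 0.0835). Without control 3, S100a10 passed the threshold at a log2 fold change of -0.56 (adjusted p = 0.039) and S100a13 at -0.65 (adjusted p = 0.0394), which made 5 genes higher and 4 lower. Over the alternatives the adjusted p-values ran from 0.039 to 0.525 for S100a10 and from 0.039 to 0.274 for S100a13. With each library rescaled to the same summed FPKM, the count was also 5 higher and 4 lower. Under that scaling the median over all genes was -0.11 on the log2 scale, and the share of calls that were higher was 39.5% with it and 52.1% with the deposited scaling. S100a1 and S100a13 lie head to head on opposite strands, and their gene spans overlap by 98 bases in RefSeq. The starts in the start regions taken here lie apart and face away from each other, so the overlap is one of spans. The sources used here do not say whether the counting used strand, so reads in the overlap cannot be assigned to one of these genes.

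All the detected S100a genes lie on chromosome 3. In the gene order of RefSeq, 12 S100 genes follow each other from S100a1 to S100a9, and of those detected the genes that were higher lay at one end. At the start of this run S100a1, S100a13 and S100a16 had log2 fold changes of -0.57, -0.50 and -0.69. At the other end S100a4, S100a6, S100a8 and S100a9 had log2 fold changes of 2.96, 2.14, 5.05 and 4.93. Among these genes S100a14, S100a3, S100a2, S100a5 and S100a7a were listed at 0 in every library. A second pair, S100a11 and S100a10, lies beyond 56 other protein-coding genes. Of these, 53 matched a row, and none had a group mean above 0.473 FPKM. Of this adjacent pair S100a11 was higher and S100a10 did not pass, with log2 fold changes of 2.63 and -0.36. On the outer side of S100a1, the 5 nearest protein-coding genes held 1 that fell, the natriuretic peptide receptor gene Npr1, and none that rose. Npr1 averaged 0.396 FPKM in knockout and 3.18 FPKM in control livers, so it reached the minimum mean through control livers alone. This order is a description, and no test was made of it.

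**Figure D2:**
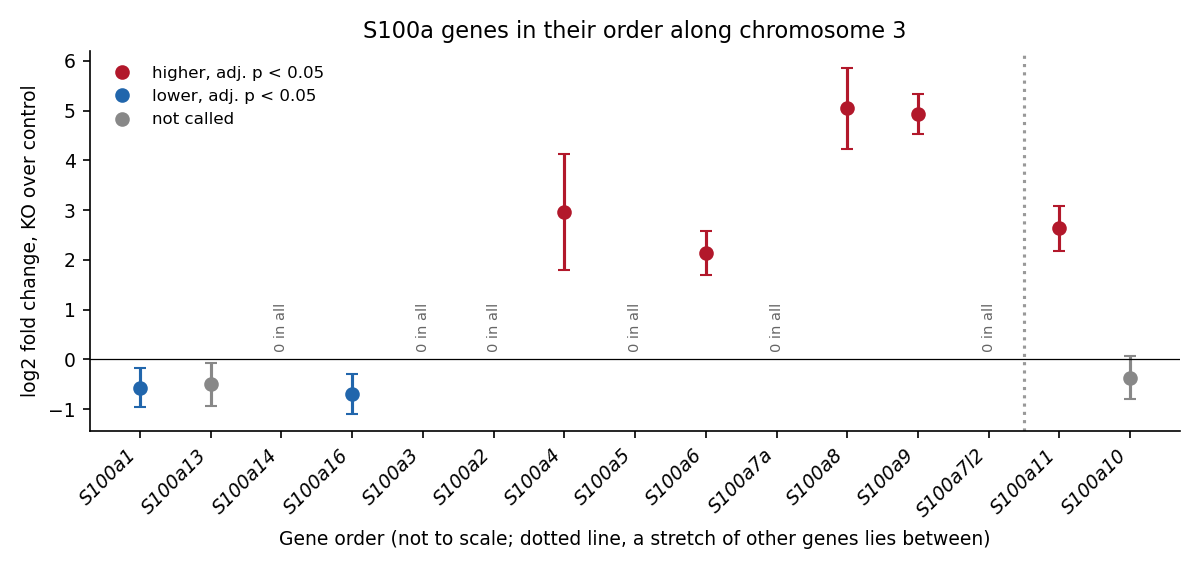
Log2 fold change of knockout over control livers with 95% intervals for the S100a genes in their order along mouse chromosome 3, not to scale, coloured by direction at a limma adjusted p under 0.05. Genes listed at 0 in every library are marked, and the dotted line stands for the other genes between S100a9 and S100a11, of which S100a7l2 is drawn. The genes from S100a4 to S100a9 that were detected lie above 2, and S100a1, S100a13 and S100a16 lie between -0.69 and -0.50.

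These changes altered the make-up of the family's RNA. The summed FPKM of the 10 genes was 1869.75, 1818 and 1821 in knockout libraries, against 537, 514 and 410 in control libraries. S100a8 and S100a9 together gave 77.6%, 77.8% and 74.5% of this sum in knockout libraries, against 5.89%, 8.78% and 15.6% in control libraries. Without them the sums were 419, 403 and 464 FPKM in knockout libraries, against 505, 469 and 346 FPKM in control libraries, and the groups overlapped. In knockout livers S100a8 and S100a9 led, with ranges that overlapped each other and no others, followed by S100a10 at 149.6 ± 20.7 and S100a1 at 109.7 ± 5.98 FPKM (SD, n = 3), each apart from its neighbours. S100a6, S100a11 and S100a4 came next with overlapping neighbours, and S100a16 was lowest at 13.7 ± 1.23 FPKM. In control livers S100a10 at 195.5 ± 46.9 and S100a1 at 166 ± 34.8 FPKM led with overlapping ranges. S100a13, S100a8, S100a16 and S100a9 followed, with neighbours in this order that overlapped, between 32.8 and 22.5 FPKM on average, and S100a4 was lowest at 5 ± 3.57 FPKM.

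**Figure D3:**
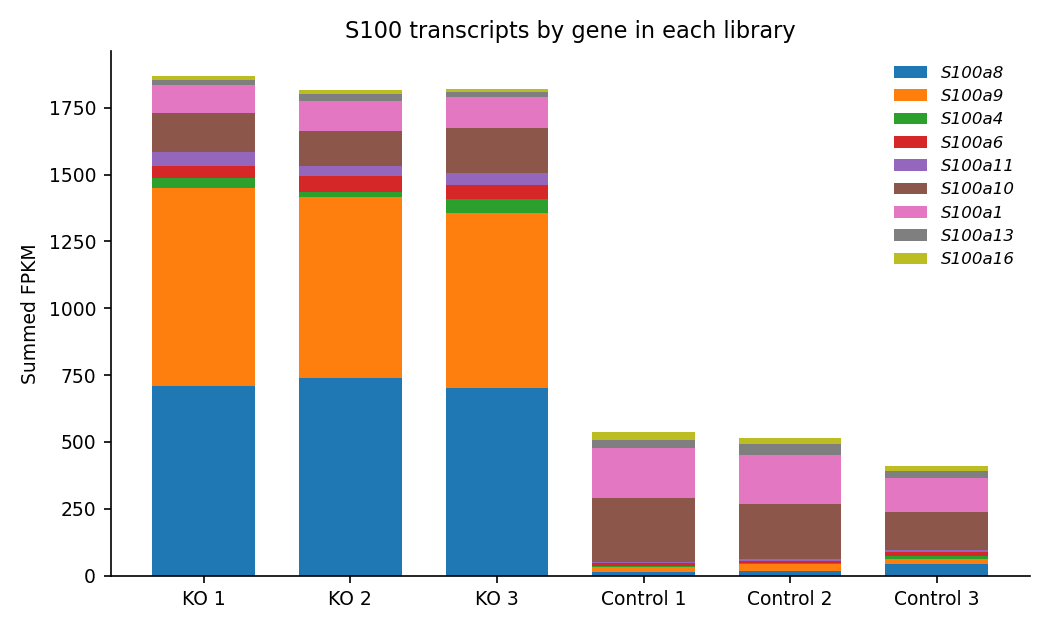
Summed FPKM of the S100 genes in each library, with each bar divided by gene, for the 3 knockout libraries (left) and the 3 control libraries (right). The blue and orange parts, S100a8 and S100a9, make up 74.5% to 77.8% of the bar in knockout libraries and 5.89% to 15.6% in control libraries.

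The partners and receptors of S100 proteins were taken from lists of known function. Annexins, calcium-dependent membrane-binding proteins that include the targets of S100a10 and S100a11, numbered 8 tested of 12, of which 3 rose and none fell (median log2 fold change 0.67). Anxa1 had 51.3, 49.7 and 57.5 FPKM in knockout libraries, against 5.16, 5.72 and 8.60 FPKM in control libraries, with a log2 fold change of 2.96 ± 0.19 (limma adjusted p = 3.07e-05). Anxa2 had 92.9, 98.1 and 120.1 FPKM in knockout libraries, against 19.96, 23.3 and 30.5 FPKM in control libraries, with a log2 fold change of 2.07 ± 0.18 (limma adjusted p = 0.000128). Anxa5, an annexin that binds phosphatidylserine, had a log2 fold change of 1.97 ± 0.21. Without control 3, 5 annexins rose, and without knockout 3, 1 fell. S100a10, whose partner Anxa2 encodes, did not pass the test in either direction. The ratio of S100a10 to Anxa2 FPKM was 1.58, 1.33 and 1.43 in knockout libraries, against 11.9, 8.77 and 4.76 in control libraries. The groups did not overlap, and the log2 difference of the ratio was -2.46, with an exact two-sided permutation p of 0.1, the smallest that this design can give. Both ratios of S100 genes tested in this way are given, and neither can pass 0.05.

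Of 9 tested genes of receptors, co-receptors and an adaptor for extracellular S100 proteins, 6 rose and none fell (median 1.12). Over the alternatives the count that rose was 4 at the lowest. Tlr4, one of the 6, had a log2 fold change of 1.18 ± 0.34 and was called in 12 of 17 alternatives. Cd33, one of the 6, reached the minimum mean through knockout livers alone. Bsg, the immunoglobulin-like protein basigin, had 817, 1078 and 1011 FPKM in knockout libraries, against 423, 448 and 356 FPKM in control libraries, with a log2 fold change of 1.24 ± 0.16 (limma adjusted p = 0.000821). Cd14, a co-receptor of TLR4, had 35.0, 75.2 and 48.8 FPKM in knockout libraries, against 9.61, 4.70 and 10.7 FPKM in control libraries (log2 fold change 2.60 ± 0.33, adjusted p = 0.000735). The groups were apart for both. Mcam, an adhesion molecule of vessels, had a log2 fold change of 1.12 ± 0.18. The signalling adaptor gene Myd88 had one of 0.65 ± 0.18. Myd88 lost its call without any 1 library except knockout 2, without the variance trend and with the replicate block. Ager, the gene of RAGE, was listed at 0 in all libraries but control 3, where it had 0.328 FPKM.

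Of 14 other binding partners, 3 rose and 1 fell (median -0.01). Myh9, the myosin heavy chain bound by S100a4, had 42.8, 40.4 and 49.7 FPKM in knockout libraries, against 18.6, 14.8 and 23.9 FPKM in control libraries (log2 fold change 1.21 ± 0.19, limma adjusted p = 0.0018). The scaffold gene Iqgap1 had a log2 fold change of 1.65 ± 0.25. The large S100a10 partner Ahnak had one of 1.26 ± 0.34, and lost its call without knockout 1, knockout 3, control 1 or control 2. Cacybp, which encodes the calcyclin-binding protein, was lower, with 12.9, 9.02 and 11.8 FPKM in knockout libraries, against 19.3, 17.5 and 19.6 FPKM in control libraries (log2 fold change -0.73 ± 0.17, adjusted p = 0.0117). S100a6, for which that protein is named, was higher in the same livers. Of 21 other EF-hand genes tested, 4 rose and 1 fell (median 0.16). So few calls, beside the shares over all genes, are not read as a result about either list. The 1 that fell, Pdcd6, lost its call without any 1 library except control 3, without the variance trend and with the replicate block, and 2 fell without control 3. Among them the leukocyte actin-bundling gene Lcp1 and the actin-binding gene Efhd2 had log2 fold changes of 1.19 ± 0.18 and 1.02 ± 0.15.

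**Figure D4:**
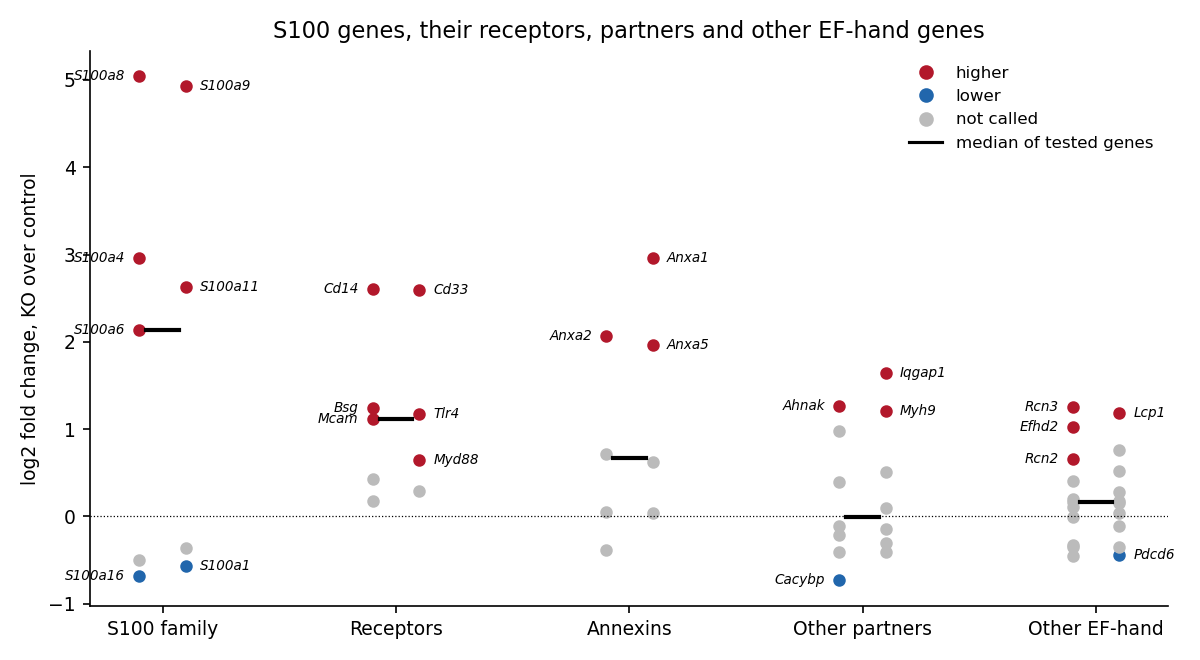
Log2 fold change of knockout over control livers for each tested gene of the S100 family, receptors of extracellular S100 proteins, annexins, other binding partners and other EF-hand genes. The receptors include the adaptor gene Myd88. Points are genes, coloured where called at a limma adjusted p under 0.05, and short black lines are medians, which were 2.14, 1.12, 0.67, -0.01 and 0.16. The 2 highest points are S100a8 and S100a9.

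Markers of several cell types moved with the S100 genes that rose. Neutrophil markers matched 19 rows, of which 18 were tested, 16 rose and none fell. Of the 18, 7 reached the minimum mean of 0.5 FPKM through knockout livers alone and so had to differ. Of the 11 at the minimum in both groups 9 rose, and 9 rose where genes at 0 in any library were removed. Their summed level was 2462 to 3295 FPKM in knockout and 1781 to 2348 FPKM in control libraries, most of it from Wfdc21, which had 1924 to 2669 FPKM in knockout and 1701 to 2254 FPKM in control libraries. Without Wfdc21 the sum was 538 to 627 FPKM in knockout and 72.0 to 94.5 FPKM in control libraries. The granule gene Ngp had 139.7, 102 and 121 FPKM in knockout libraries, against 0, 2.21 and 4.34 FPKM in control libraries. Camp, another granule gene, was listed at 0 in controls 2 and 3, and Stfa2 in all libraries. The 9 tested monocyte markers rose, of which 3 reached the minimum through knockout livers alone, and 5 rose where genes at 0 in any library were removed. They had summed levels of 269 to 295 FPKM in knockout and 26.2 to 34.5 FPKM in control libraries, and 10 of 10 were above 0 in some library. Stellate cell and fibroblast markers, of which 9 of 13 rose, summed to 399 to 561 FPKM in knockout and 185 to 239.6 FPKM in control libraries. Macrophage and Kupffer cell markers, of which 11 of 14 rose and 1 reached the minimum through knockout livers alone, summed to 1601 to 2009 FPKM in knockout and 789 to 1331 FPKM in control libraries. Those that did not pass were Clec4f, Timd4 and Marco, with log2 fold changes of 0.18, 0.56 and 0.74. The part of these cell types in the rises of S100a8, S100a9, S100a4, S100a6 and S100a11 was not tested.

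Smaller lists were mixed. The 3 eosinophil markers tested all reached the minimum through knockout livers alone, so that their calls say no more than their sums of 41.6 to 73.9 FPKM in knockout and 0.396 to 2.1 FPKM in control libraries. Lymphocyte markers rose in 4 of 8 tested, and in 2 of the 5 at the minimum in both groups, with sums of 20.25 to 38.5 FPKM in knockout and 4.25 to 9.44 FPKM in control libraries. Bile duct markers had 1 higher and 1 lower of 5 tested (sums of 41.1 to 52.03 FPKM in knockout and 29.1 to 44.4 FPKM in control libraries). The lower one, Krt19, lost its call without knockout 1 or any 1 control and in 3 other alternatives. The higher one, Sox9, reached the minimum through knockout livers alone, and 2 were higher without control 3. Mesothelial markers had none higher and 1 lower of 5 tested (3.96 to 5.84 FPKM in knockout and 8.73 to 14.8 FPKM in control libraries), and 2 lower without knockout 2. Beside the S100 genes that were lower, hepatocyte markers fell in 5 of 10 and rose in 1, with sums of 16707 to 17687 FPKM in knockout and 20038 to 25896 FPKM in control libraries. Only 3 fell without control 1. The 1 that rose, Fgb, and Hnf4a, which fell, lost their calls without any 1 library. Sinusoidal endothelial markers fell in 7 of 8 (28.9 to 32.4 FPKM in knockout and 149 to 217 FPKM in control libraries), and general endothelial markers in 4 of 8 (49.8 to 60.7 FPKM in knockout and 64.4 to 96.1 FPKM in control libraries). In both endothelial lists 1 marker reached the minimum through control livers alone. Without control 3, 1 sinusoidal and 2 general endothelial markers were higher. The part of hepatocytes and endothelium in the lower levels of S100a1 and S100a16 was not tested. All 10 hepatocyte markers were above 0 in some library.

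**Figure D5:**
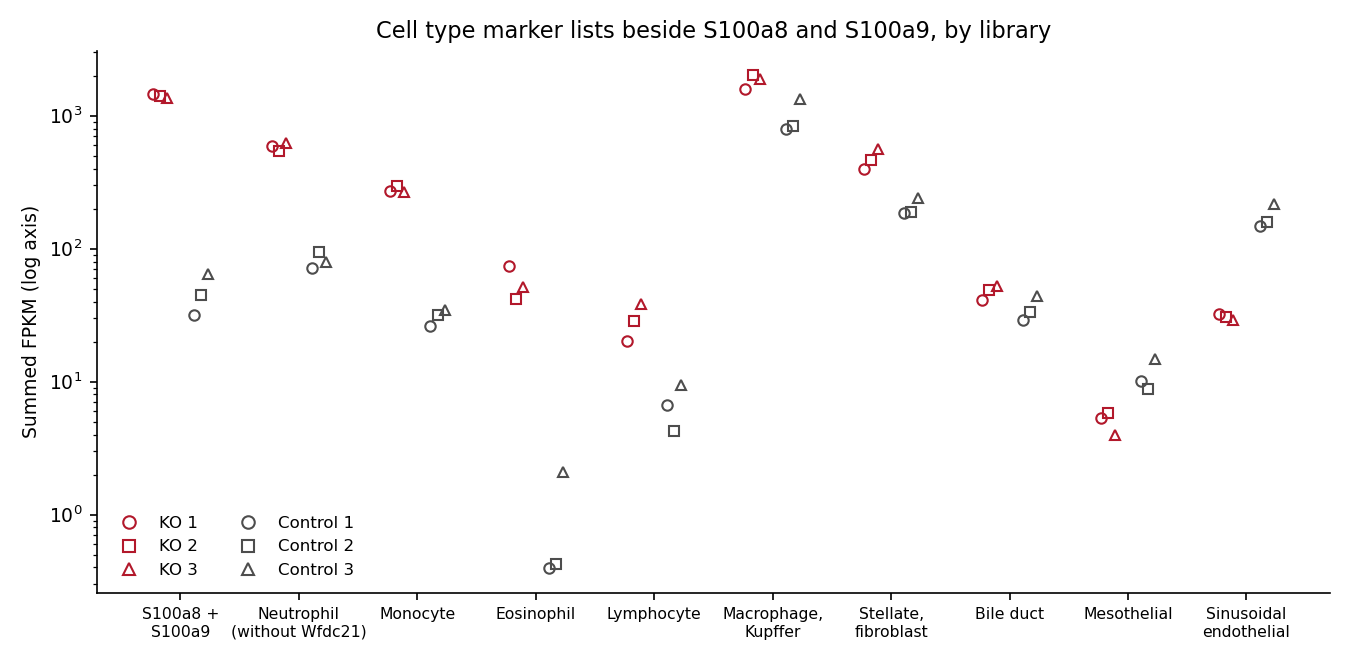
Summed FPKM, on a log axis, of S100a8 with S100a9 and of marker lists of 9 cell types in each knockout library (red, left) and control library (grey, right), with symbols for the replicate number. The neutrophil list is drawn without Wfdc21. Neutrophil, monocyte, eosinophil, lymphocyte, macrophage and Kupffer cell, and stellate cell and fibroblast sums lie higher in all knockout libraries. Mesothelial and sinusoidal endothelial sums lie lower in all of them, and bile duct sums overlap.

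By a measure of likeness over the 6 libraries, the profiles nearest to S100a8 and S100a9 belonged to different genes. The measure was the Euclidean distance between log2 profiles, each centred on its own mean, among 6433 other genes whose mean was 5 FPKM or more. Nearest to S100a8 were the acute phase gene Saa3 (distance 0.81), the neutrophil gene Retnlg (0.83) and the mitochondrial gene Ndufa4l2 (1.05). Saa3 had 3044, 2080 and 4317 FPKM in knockout libraries, against 54.2, 72.4 and 181 FPKM in control libraries. In all 3 of these genes control 3 was the highest control, as in S100a8. The choice by likeness over these same libraries favours such a match, so it is no separate result. Nearest to S100a9 were the fatty acid receptor gene Ffar4 (0.93), the neutrophil collagenase gene Mmp8 (1.10) and the interferon-induced gene Ifitm6 (1.13). Of the nearest genes, all but Saa3 reached the mean of 5 FPKM through knockout livers alone. The distance between S100a8 and S100a9 themselves was 1.44.

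Control 3 lay nearer to knockout livers than the other controls did for 7 of the 9 S100 genes, all but S100a9 and S100a11. The same held for 46.2% of all genes tested and for 57.5% of the genes called. In control 3 the macrophage receptor gene Marco had 267 FPKM, against 65.2 and 69.4 FPKM in controls 1 and 2, and Col1a1, the type I collagen gene, had 12.8 FPKM, against 1.67 and 3.18 FPKM. Without control 3, the 5 S100 genes that rose had log2 fold changes of 3.45 for S100a4, 2.34 for S100a6, 5.56 for S100a8, 4.88 for S100a9 and 2.68 for S100a11, and each passed the threshold. Map3k7 had 9.28, 9.31 and 7.35 FPKM in knockout libraries, against 8.50, 9.02 and 9.14 FPKM in control libraries, with a log2 fold change of -0.04 ± 0.16 (limma adjusted p = 0.868). Cells other than endothelium express it and transcripts that lack only the flanked part can still be counted, so it does not check the labels. Cdh5, the gene of VE-cadherin, had 18.8, 18.0 and 16.3 FPKM in knockout libraries, against 12.7, 10.3 and 23.1 FPKM in control libraries. Absolute depth is unknown. The smallest steps between low FPKM values gave relative depths of 0.919 to 1.09, with control 1 set to 1. Of the low genes compared with control 1, 46.7% to 51.0% lay on the step. The exact scaling of the values is not stated, so these steps may follow the scaling and not the depth.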

How the data were processed

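Libraries of liver mRNA were made with a TruSeq kit and read as paired ends, per the labels' protocols. The submitters' processing notes name Cuffnorm 2.2.1 and Cuffdiff 2.2.1, TopHat2 2.1.0 and Trimmomatic 0.33, and the build mm9. The deposited values are FPKM per gene, 1 column per library, used as the authors gave them. No source used here names the annotation. FPKM is a share of a library, so a few abundant genes can shift all others, and with no counts no counting interval can be given. Alb, at 0 in every control and far above in knockouts, was left out as a failed estimate.

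Knockout and control libraries entered 1 two-sided limma fit (version 3.58.1, R 4.3.3, lmFit and trended eBayes) of log2(FPKM + 0.5). That scale understates changes of low genes. The fit held 11842 genes averaging 0.5 FPKM or more over the 6 libraries, and calls were made where p, adjusted by Benjamini-Hochberg over all of them, was under 0.05. The steps were tested on simulated data. Ratios were tested by exact permutation over libraries (scipy 1.17.1). Genes, lists and tests were chosen with earlier results of these data known, and the motifs after these values were seen. Named genes were the 10 members, Anxa1, Anxa2, Map3k7, Cdh5, detected minor S100 genes, and per list up to 4 of the most abundant called genes, or the 2 most abundant where fewer than 2 were called. The 3 genes nearest to S100a8 and to S100a9 were also taken. Not every gene so taken is named. Ager, Cd33, Clec4f, Hnf4a, Marco, Npr1, Stfa2, Timd4, Tlr4 and Wfdc21 were named after their values were seen. The alternatives were 4 of pseudocount and filter, 2 scalings, 2 variance models, a replicate block, each library left out, and 2 chosen after seeing the data: Alb kept, and genes at 0 in any library removed. Figures were drawn with matplotlib 3.10.9.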

Additional observations from a re-analysis of the deposited data

How the results depend on the processing

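The 5 S100 genes that were higher in knockout livers were so under all 17 alternatives, with log2 fold changes of 2.31 to 3.45 for S100a4, 1.97 to 2.34 for S100a6, 4.73 to 5.56 for S100a8, 4.80 to 5.13 for S100a9 and 2.46 to 2.75 for S100a11. The S100 genes called lower numbered 2, but 1 with all genes above 0 tested, 1 without the variance trend, 4 after rescaling to equal summed FPKM, and 0 to 4 when 1 library was left out. S100a1, S100a10, S100a13 and S100a16 stayed below 0 throughout (-0.76 to -0.48, -0.56 to -0.21, -0.65 to -0.36 and -0.82 to -0.53). Why calls were gained or lost was not tested, except that fits without a library have fewer samples. Over all genes, 1669 were higher and 1534 lower, against 1186 to 1644 and 943 to 1497 when 1 library was left out. With the replicate block, S100a13 passed (adjusted p = 0.0438) and S100a1 did not (adjusted p = 0.0503), and all genes gave 1575 higher and 1385 lower. The SE of S100a4 was 0.52 in the main fit and 0.23 with the block. Whether the numbers pair the libraries is not known. Deviations of same-numbered libraries over all genes correlated at -0.01, -0.0001 and 0.0015. That shows no broad shared shift but cannot exclude a pairing. The log2 difference of the S100a8 to S100a9 ratio reversed to -0.07 without control 1 and -0.28 without control 2, in a range of -0.28 to 0.70, and that of the S100a10 to Anxa2 ratio was -2.82 to -2.16 without 1 library. The log2 difference of the summed S100 level ranged from 1.81 to 2.0 without 1 library, and without S100a8 and S100a9 from -0.19 to 0.09. Of 91 called genes of the lists, 75 were called under all alternatives that tested them. With 3 libraries a group, precision is limited for small differences such as those of S100a10 and S100a13.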

Other observations

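Further S100 genes outside the 10 were at or near 0. S100b, known from glia and Schwann cells, was listed at 0.302 FPKM in knockout 2 and 0.293 FPKM in control 2, and at 0 elsewhere. Of the fused S100-type genes, which encode large epidermal proteins, Tchh had 0.213 to 0.323 FPKM in knockout and 0.206 to 0.521 FPKM in control libraries, and 5 others were at 0. Of 6 genes that respond to or control vitamin D, chosen beside S100g, 3 were at 0 in every library, and Atp2b1, a calcium pump, was tested. It had 9.93, 10.7 and 9.90 FPKM in knockout libraries, against 6.40, 5.08 and 6.56 FPKM in control libraries, with a log2 fold change of 0.72 ± 0.17 (limma adjusted p = 0.0125), and lost its call without control 2.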
